A study of Rattus norvegicus with 12 samples.

Results

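In kidney DNA of young male rats, 399 promoter regions on the autosomes gave a higher methylation signal on every array of the mLP-CN group than on any of the 9 arrays of the other groups. These were 2.59% of the 15396 autosomal regions with at least 3 probes. The regions were chosen by that order, in the log2 values that the authors deposited, so the height of the mLP-CN arrays is a description of the choice and was not tested. The opposite pattern, with all 3 mLP-CN arrays below the other 9, was found in 677 autosomal regions, which is 4.4%.

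The rats were males of the SHRSP (stroke-prone spontaneously hypertensive) strain, which is inbred and develops severe hypertension, and were examined at 6 weeks of age. Dams of the mCN-CN group received a control (CN) diet with 20% casein during pregnancy, and those of the other 3 groups (mLP-CN, mLP-LP, mLP-HP) received a low-protein (LP) diet with 9% casein. Every dam and litter was on the CN diet from birth until the pups were separated from the dams, and the pups were then fed the CN diet (mCN-CN and mLP-CN), the LP diet (mLP-LP), or a high-protein (HP) diet with 40% casein (mLP-HP) until sampling. Of the 3 groups with restricted dams, mLP-CN was the one that stayed on the control diet after separation from the dams. Each group had 3 arrays, and as the labels do not say whether they came from separate animals or litters, p-values measure only the spread between these arrays. The arrays read DNA of the whole kidney, a mixture of many cell types, in which a change of methylation within a cell type and a change in the mixture of cell types cannot be told apart.

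DNA methylation in mammals is mostly the addition of a methyl group to cytosine in CpG dinucleotides. It is copied at cell division by maintenance methyltransferases, and the pattern laid down before and shortly after birth can last into adult life. Promoters rich in CpG sites are mostly unmethylated in normal tissue, whereas promoters poor in CpG sites are often methylated, and dense methylation of a promoter generally goes with a silent gene. In methylated DNA immunoprecipitation (MeDIP) an antibody against 5-methylcytosine collects methylated fragments, and on these arrays the collected DNA was labeled with Cy5 and the untreated input DNA with Cy3. A value is the log2 ratio of both signals, so 0 is the typical probe of an array and not an unmethylated one, and positions are on build rn4, counted from 1.

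The 12 arrays were read in 5 scans, and the 3 mLP-CN arrays shared scan 2 with only 1 other array, mCN-CN array 3. No scan held a mLP-CN array together with a mLP-LP or mLP-HP array. Numbered in array order, all mCN-CN and mLP-CN arrays were scanned on day 1. The mLP-HP arrays and mLP-LP array 10 were scanned on day 2, and mLP-LP arrays 11 and 12 on day 3. The control diet after separation shared no scan day with the LP or HP diet, so diet and scan day cannot be told apart there. Median Cy5 intensity was 94 to 103 on the mLP-CN arrays and 119.5 to 153 on the other 9. Array mCN-CN 3 stood apart in the number of probes flagged as outliers, 16509 against 170 to 7623 on the others.

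Across the 399 regions, the median value was −0.08, −0.10, and −0.07 on the 3 mLP-CN arrays. It was −0.33, −0.32, and −0.28 on the mCN-CN arrays. It was −0.35, −0.28, and −0.27 on the mLP-LP arrays and −0.40, −0.38, and −0.38 on the mLP-HP arrays. The mLP-CN arrays were therefore the highest by construction, and the mLP-HP arrays had the lowest medians of the 9 arrays below them. In the same table the median over all autosomal regions was between −0.05 and 0.01 on every array, so the 9 lower arrays sat below the typical region of their array and the mLP-CN arrays came close to it.

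**Figure D1:**
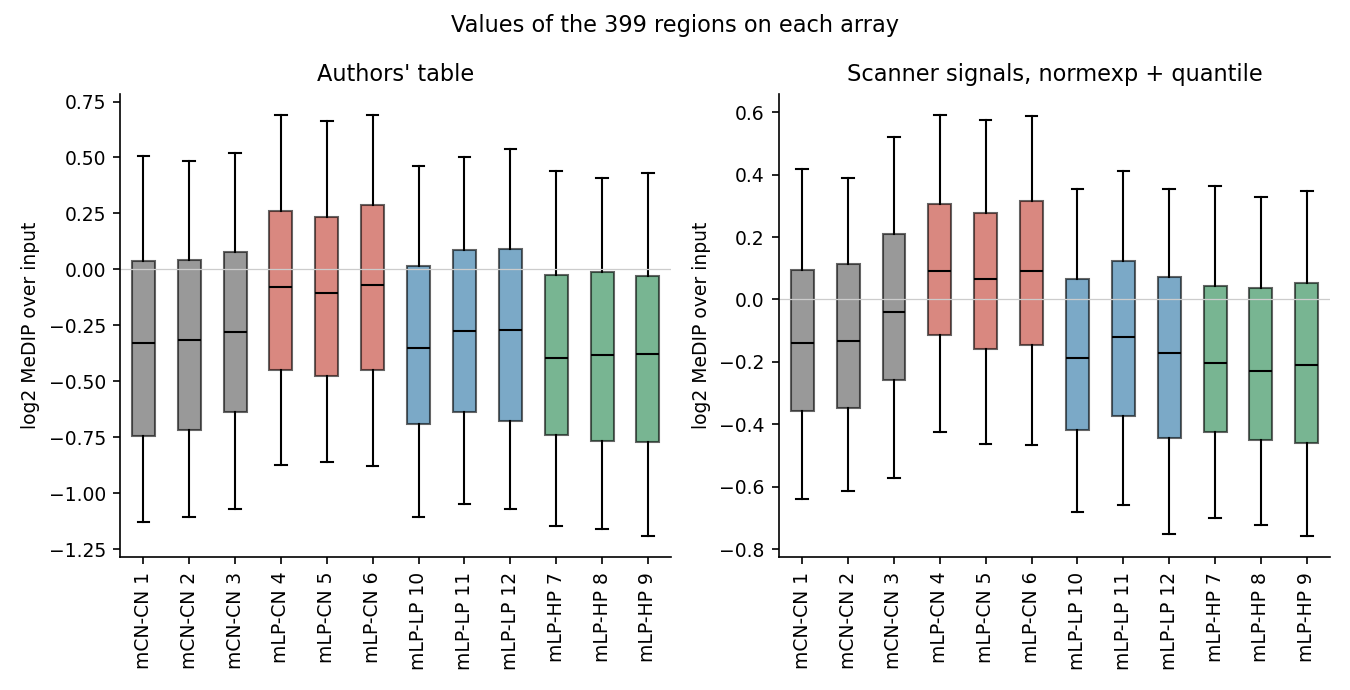
Distribution of the log2 ratio of immunoprecipitated over input DNA in the 399 regions on each of the 12 arrays, in the authors' table (left) and in values computed from the scanner signals (right); boxes span the quartiles, the line is the median, and whiskers reach the 5th and 95th percentiles. The 3 mLP-CN arrays have medians of −0.10 to −0.07 on the left, and mCN-CN array 3 is the highest of the other arrays on the right with a median of −0.04.

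The difference was modest in most regions. The mLP-CN mean exceeded the mean of the other 9 arrays by a median of 0.23, with a range of 0.03 to 0.57. Against each group in turn, the median difference was 0.21 over mCN-CN, 0.20 over mLP-LP, and 0.28 over mLP-HP. A log2 difference of 0.21 is a 1.16-fold higher ratio. The median SD among the 3 arrays of a group was 0.05 for mLP-CN, 0.07 for mCN-CN, 0.08 for mLP-LP, and 0.06 for mLP-HP. The step from the highest of the 9 arrays to the lowest mLP-CN array, called the gap below, had a median of 0.03 and reached 0.27. It was at least 0.05 in 130 regions, at least 0.1 in 45, and at least 0.2 in 4.

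The widest gap was at chr10:68563369-68565073, a region of 1705 bp with 6 probes. The mLP-CN arrays read 0.15, 0.16, and 0.22 there, against −0.22, −0.32, and −0.12 for mCN-CN. The mLP-LP arrays read −0.49, −0.41, and −0.31, and the mLP-HP arrays −0.30, −0.47, and −0.38. The mLP-CN group was the only one above 0, and the mLP-LP and mLP-HP arrays overlapped. At chr13:67877001-67878523, with 9 probes, the mLP-CN arrays read 0.15, 0.11, and 0.08. The mCN-CN arrays read −0.41, −0.42, and −0.17, the mLP-LP arrays −0.23, −0.38, and −0.45, and the mLP-HP arrays −0.41, −0.37, and −0.44. Here the other 3 groups overlapped one another, and mCN-CN array 3 was the nearest to the mLP-CN arrays.

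In the regions next in order the mLP-CN group again stood alone, at quite different levels. At chr18:59870944-59872669, with 11 probes, the mLP-CN arrays read −0.44, −0.43, and −0.39, whereas the other 9 lay between −0.88 and −0.67. At chr9:17001734-17003306, with 10 probes, they read −0.36, −0.44, and −0.29, and the others between −0.93 and −0.64. At chr3:97425368-97427050, with 11 probes, they read −0.66, −0.75, and −0.65, and the others between −1.23 and −0.95. All 12 arrays were below 0, the typical probe, in these 3 regions. In contrast, at chr5:127698826-127700439, with 10 probes, the mLP-CN arrays read 0.27, 0.20, and 0.28 while the other 9 stayed within 0.10 of 0.

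The last 4 of the 10 regions with the widest gap and at least 5 probes had gaps of 0.17 to 0.18. They were chr15:26419565-26421190, chr3:72915286-72917011, chr3:51814722-51816454, and chr14:21723559-21725330. At chr3:72915286-72917011 the mLP-CN arrays read 0.09, 0.13, and 0.13, above mLP-LP (−0.28, −0.12, and −0.09), mCN-CN (−0.28, −0.17, and −0.23), and mLP-HP (−0.41, −0.34, and −0.47). In that region the mLP-HP arrays did not overlap with those of any other group.

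**Figure D2:**
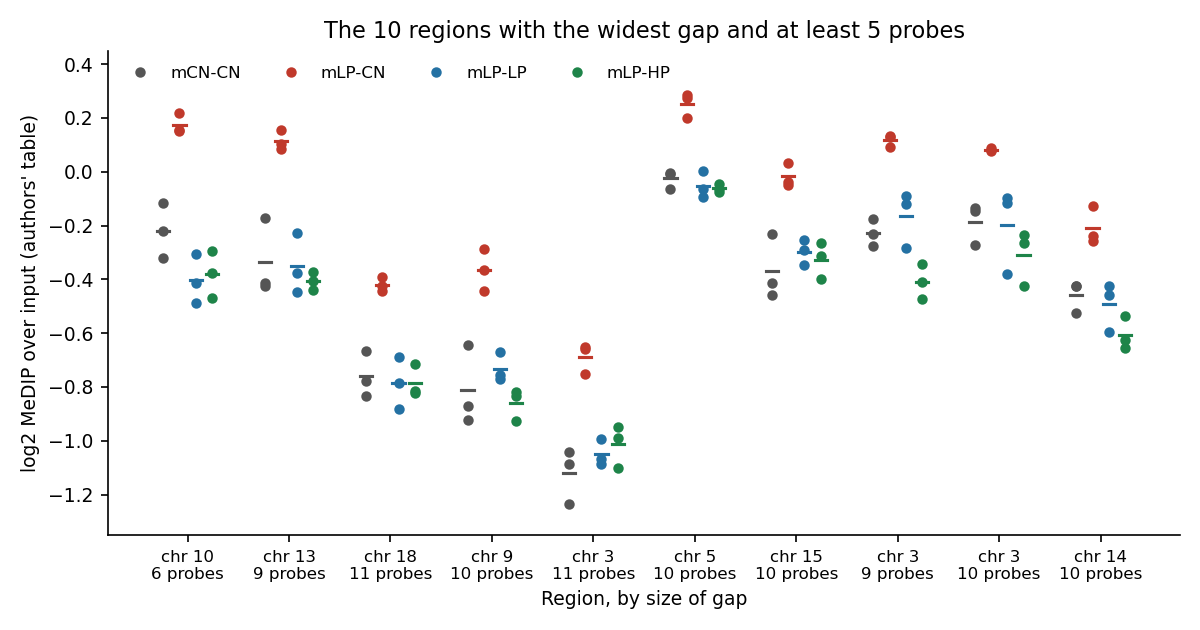
Values in the authors' table (log2 ratio of immunoprecipitated over input DNA) for the 10 regions with the widest gap and at least 5 probes, in the order of the gap; points are the 3 arrays of each group and bars their mean. The mLP-CN arrays lie above all others in each region by the rule, at levels from −0.75 to 0.28, and the remaining groups overlap in most regions.

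At the other end, membership rested on differences far smaller than the spread between arrays. At chr8:18629069-18630731 the lowest mLP-CN array and mCN-CN array 3 both read −0.78, a gap of 1.25e-05, although the mLP-CN mean was 0.33 above the mean of the 9. The next smallest gaps were 2.87e-04 at chr4:166734353-166735744 and 2.95e-04 at chr1:15603991-15605616. Just outside were chr18:29713935-29715569, where a mLP-HP and a mLP-CN array both read −0.39, chr13:51083238-51132702, and chr4:81020284-81021957, which missed narrowly, the last of them with a gap of −0.000118.

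The array that came closest to the mLP-CN group was mCN-CN array 3 in 98 regions (24.6%), mLP-LP array 11 in 83 (20.8%), and mLP-LP array 12 in 78 (19.5%). Over all autosomal regions, these arrays were the highest of the 9 in 17.5%, 12.8%, and 11.1%. Of these arrays, mCN-CN array 3 was the one read in the same scan as the mLP-CN arrays. The mLP-CN mean exceeded it by a median of 0.16, against 0.22 and 0.23 over mCN-CN arrays 1 and 2, which were scanned apart. Over mLP-LP arrays 11 and 12, which were also scanned apart, the excess was 0.16 and 0.18. In values computed from the scanner signals, the median excess was 0.10 over mCN-CN array 3. There it was 0.19 to 0.27 over each of the other arrays outside mLP-CN. Over all autosomal regions the scanner median was −0.05 for mCN-CN array 3 and −0.03 to −0.004 for the others. The part of the scan in this was not tested.

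Among the other 3 groups, mLP-HP had the lowest mean in 256 of the 399 regions (64.2%), compared with 38% of all autosomal regions. The mLP-LP group was the lowest in 41 regions (10.3%, against 31.6% of all) and mCN-CN in 102 (25.6%, against 30.4%). At the upper end the authors' table put mLP-LP second in 190 regions (47.6%, against 25.2% of all regions in which it was the highest of the 3 groups) and mCN-CN in 157 (39.3%, against 36.3%). Values computed from the scanner signals also put mLP-HP lowest, in 286 regions (71.7%, against 41%). There mCN-CN was second in 318 regions (79.7%, against 37.8%) and mLP-LP in 49 (12.3%, against 23.9%). The low place of mLP-HP was common to both sources, whereas whether mLP-LP or mCN-CN came next depended on the processing.

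The rule set no order among the other 3 groups, which were therefore compared with one another. All 9 of their arrays had to lie below the mLP-CN arrays, however, and the scanner signals come from the same arrays, so the p-values that follow are not independent of the choice. For these tests the log2 ratio was computed from the scanner signals, and limma was fitted to 16055 regions, chromosome X and unplaced sequence included, with Benjamini-Hochberg adjustment over all of them. The mLP-LP and mLP-HP groups were each compared with the same 3 mCN-CN arrays.

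Between mLP-LP and mCN-CN, 0 of the 399 regions passed an adjusted p of 0.05 in limma (0.00623% of all regions tested did). An unadjusted p under 0.05 was found in 56 of them (14%), against 11.7% of all regions. The median difference was −0.06, against −0.00400 over all regions tested. The mLP-LP mean was the lower in 337 regions (84.5%), compared with 52.1% of all regions. In the authors' table the median difference had the other sign, 0.01, so no direction can be given.

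Between mLP-HP and mCN-CN, 84 of the 399 regions (21.1%) were significantly lower in mLP-HP, whereas 8.35% of all regions tested were lower. One region was higher (chr7:106538511-106539231, difference 0.22, adjusted p = 0.0451), whereas 8.46% of all regions were higher. The median difference was −0.10, against −0.01 over all regions tested, and the mLP-HP mean was the lower in 353 regions (88.5%, against 52.1% of all). In the 84 regions the differences ran from −0.42 to −0.15, and the mLP-HP arrays did not overlap with the mCN-CN arrays in any of them. Counting regions without a test, all 3 mLP-HP arrays lay below all 3 mCN-CN arrays in 201 of the 399 (50.4%), against 21.4% of all regions.

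These calls depended on how the scans were treated. With the scan as a random block (consensus correlation 0.533), 1 of the 399 regions was lower (0.0561% of all regions tested were), and no scan held arrays of both groups. In the authors' own values, which the rule used for the choice, 41 regions (10.3%) were lower and 1 was higher. Of all regions, 7.56% and 5.55% were, and 36 of the 84 were among the 41. Calls in those values are therefore no independent check. The median residual SD of the fit to the scanner values was 0.061 in the 399 regions and 0.077 in all autosomal regions. Its part in the calls was not tested. With a mLP-HP array left out, 28 (7.02%, without array 9), 35 (8.77%, without array 8), or 53 (13.3%, without array 7) of the 399 regions were lower. In the same fits 2.19%, 2.95%, and 4.06% of all regions tested were lower.

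Of the 84 regions, 27 lay on chromosome 3, and many had long probes. Among the 147 of the 399 regions in the top decile of autosomal regions by probe length, 49 (33.3%) were lower in mLP-HP, against 17.6% of all autosomal regions in that decile and 8.35% of all regions tested. In the bottom decile 1 of 8 was lower, against 2.31% of all autosomal regions there. In the top decile the median of mLP-HP minus mCN-CN was −0.12 in the 147 and −0.08 over all autosomal regions. There mLP-LP minus mCN-CN was −0.09 and −0.06. Where at most 40% of a region's probes were well above background in Cy3 on all arrays, mLP-HP minus mCN-CN was −0.12 and −0.11. The part of probe length and input signal in these calls and differences was not tested.

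The largest difference was at chr3:72885040-72886692, with 9 probes, the region that also passed with the scan as a random block (adjusted p = 0.0485). On the scanner scale its mLP-HP arrays read −0.73, −0.75, and −0.76, and its mCN-CN arrays −0.32, −0.34, and −0.31. The mLP-LP arrays read −0.65, −0.43, and −0.52, and the mLP-CN arrays −0.17, −0.28, and −0.24. The mLP-HP group was the lowest without overlap, and the difference from mCN-CN was −0.42 with an SE of 0.06 (limma, adjusted p = 0.00165). At chr8:40755186-40756833, with 9 probes, mLP-HP read −0.69, −0.84, and −0.85 against −0.44, −0.48, and −0.40 for mCN-CN (difference −0.35, limma adjusted p = 0.00525). At chr3:69413517-69415257, with 9 probes, mLP-HP read −0.59, −0.63, and −0.68 against −0.35, −0.31, and −0.24 (difference −0.33, limma adjusted p = 0.00347). On the scanner scale the mLP-LP arrays read lower than the mCN-CN arrays in all 3 regions, but none passed the test of mLP-LP against mCN-CN. In the authors' table the arrays of both groups overlapped in all 3. At chr3:69413517-69415257 the mLP-LP mean there was −0.76, above −0.89 for mCN-CN.

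Between mLP-HP and mLP-LP, 0 of the 399 regions passed in limma, as did 0% of all regions tested. An unadjusted p under 0.05 was found in 45 of them (11.3%), against 19.6% of all regions. The median difference was −0.04. The number changed when an array was left out. Without mLP-LP array 10, the only one scanned with mLP-HP arrays, 35 regions passed (8.77%, against 21.5% of all regions tested). The arrays of both postnatal diets lay below the mLP-CN arrays in every region by the rule. Set against the control group, mLP-LP differed significantly in none of the 399 regions in limma, whereas mLP-HP was below it in the 84 regions given above, 1 of which held with the scan as a random block.

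**Figure D3:**
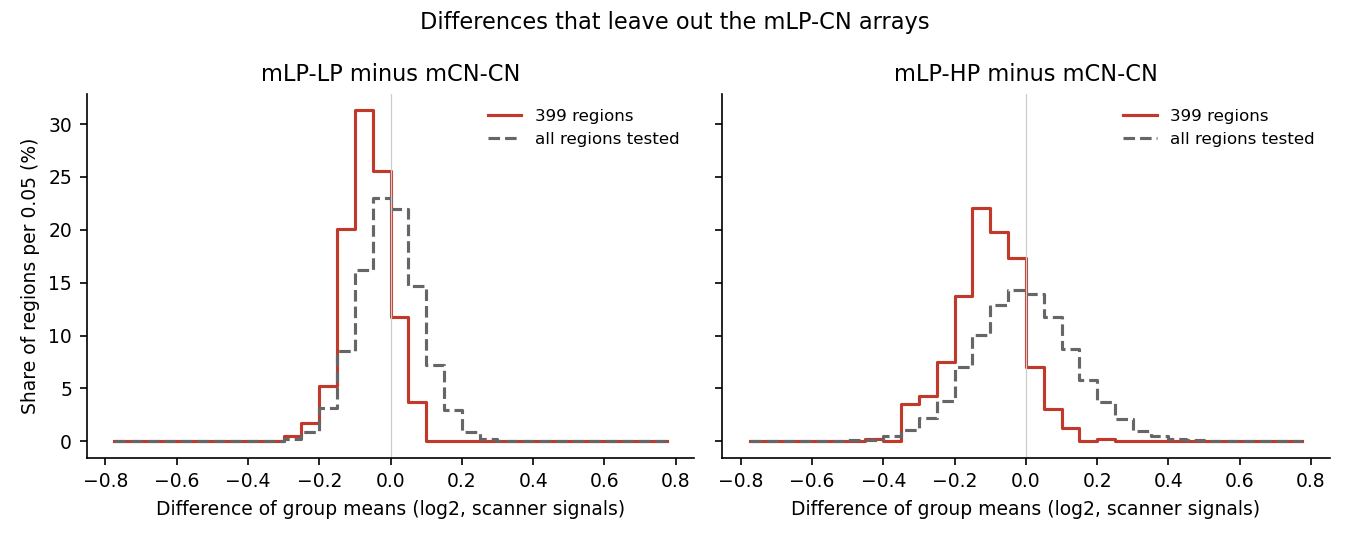
Share of regions by the difference of group means (log2 ratio from the scanner signals, bins of 0.05) for mLP-LP minus mCN-CN (left) and mLP-HP minus mCN-CN (right), in the 399 regions (solid) and in all regions tested (dashed). Medians are −0.06 and −0.10 in the 399 regions; the left one turned to 0.01 in the authors' table.

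A higher ratio can come from more immunoprecipitated DNA, less input signal, or both. In the 399 regions, mean Cy5 signal was higher in mLP-CN than in the other 9 arrays in 334 (83.7%, against 35.1% of all autosomal regions), with a median difference of 0.10. Mean Cy3 signal was lower in 369 (92.5%, against 61.5%), with a median difference of −0.12. Both held in 306 regions (76.7%, against 22.6%). The rule chose a high ratio in mLP-CN, so shares above those of all regions follow from the choice and were not tested. Against mCN-CN array 3 of the same scan, however, the median difference was −0.04 in Cy5 and −0.20 in Cy3, where over all autosomal regions it was −0.14 and −0.17.

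The regions had longer probes than the rest of the array. Mean probe length was 52.2 bases in the median region of the 399 and 48.3 in all autosomal regions. Across deciles of all autosomal regions by probe length, the share of regions that belonged to the 399 rose from 0.513% (8 of 1558) at the shortest to 9.59% (147 of 1533) at the longest. The share of regions in which mLP-CN lay below all other arrays ran the other way, from 9.18% to 0.261%. On arrays that even out melting temperature, longer probes are usual in AT-rich sequence, and base composition was not analysed here.

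They also held more probes with dim input signal. In the median region of the 399, 60% of the probes were well above background in Cy3 on all 12 arrays, compared with 80% over all autosomal regions. The share of regions that belonged to the 399 was 23.2% (49 of 211) where at most 40% of the probes were that bright and 0.123% (3 of 2435) where all were. In the 399 regions the mLP-CN mean exceeded the others by a median of 0.36 at the 1855 dim probes and 0.12 at the 3082 bright ones. Over all autosomal regions it exceeded them by 0.18 at dim probes and fell below them, with a median of −0.07, at bright ones. Those values were smoothed over neighboring probes. In the unsmoothed scanner values the median excess in the 399 regions was 0.47 at dim probes and 0.07 at bright ones. It was above 0 at 98.4% of these dim probes and 58.5% of the bright ones. Over all autosomal regions it was 0.38 at dim probes, with 95.2% above 0, and −0.11 at bright ones, with 38% above 0. With dim probes left out, 72 of the 381 regions that kept at least 3 probes were still separated, out of 94 of 15273 autosomal regions (0.615%).

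**Figure D4:**
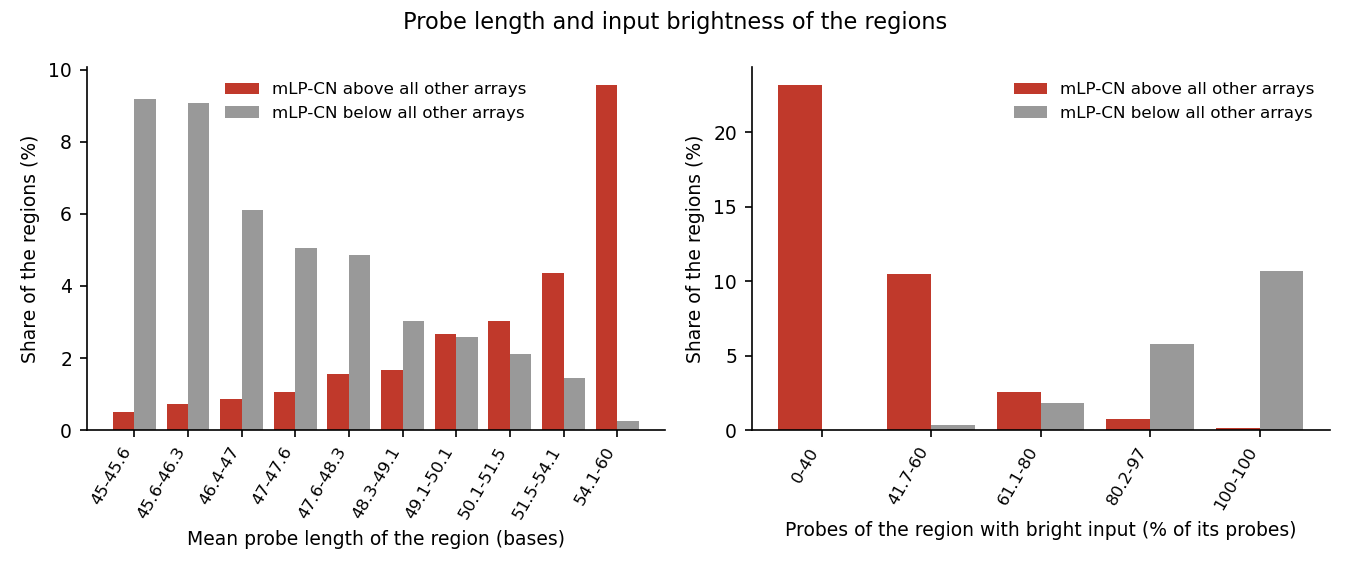
Share of autosomal regions (%) with all 3 mLP-CN arrays above (red) or below (gray) the other 9 arrays, by mean probe length in deciles (left, bases) and by the share of a region's probes well above background in Cy3 on all 12 arrays (right, %). The red share rises to 9.59% with probe length and falls from 23.2% to 0.123% with input brightness, and the gray share runs the opposite way in both panels.

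The level of the regions was low as well. The mean of the other 9 arrays had a median of −0.33 in the 399 regions and −0.01 in all autosomal regions. Number of probes and length were ordinary, with medians of 10 probes and 1667 bp against 10 probes and 1664 bp, and 14 of the 399 were longer than 5000 bp. The longest was chr13:110917523-110968095, which held 269 probes over 50573 bp. Its mLP-CN arrays read −0.23, −0.24, and −0.23 and the other 9 lay between −0.38 and −0.25, a difference of 0.05 between the means.

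Along a region the difference was broad in position, though it was larger at dim than at bright probes, as given above. In the 382 regions of at most 2500 bp, the median difference of single probes was 0.28 at the center, 0.27 at 800 bp to one side, and 0.17 at 800 bp to the other side. Of 4937 probes in the 399 regions, 3968 (80.4%) had a higher mean in mLP-CN, compared with 45.8% of all autosomal probes. By themselves, 735 (14.9%) lay above the other 9 arrays, compared with 2.73% of all autosomal probes. The rule used the mean of these same probes, so an excess over all probes follows from the choice. As neighboring values in the authors' table were smoothed, single probes there are not independent. In the unsmoothed scanner values 1107 of 4480 probes (24.7%) lay above by themselves, compared with 10% of all autosomal probes. Those values come from the same arrays, so they are not independent of the choice either.

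The regions were spread over all 20 autosomes but not evenly. Chromosome 3 held 63 of them (15.8% of the 399, against 8.79% of all autosomal regions), which was 4.66% of its regions, and chromosome 12 held 4 (0.935% of its regions). The excess on chromosome 3 lay in 1 stretch, chr3:68208431-74348649, where 34 of 210 regions belonged to the 399 (16.2%). On the rest of chromosome 3 it was 29 of 1143 (2.54%), close to the 2.59% of all autosomes. The stretch was drawn from the first to the last of its members, so part of this contrast follows from how it was drawn.

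In that stretch of 6.14 Mb the mLP-CN mean was above the mean of the other 9 arrays in 176 regions (83.8%, compared with 43.3% of all autosomal regions). These include its 34 members, which are above by the rule. In its regions outside the 399, the mLP-CN arrays had medians of −0.74, −0.76, and −0.77, and the other 9 from −0.92 to −0.81. The other 9 arrays had medians from −0.91 to −0.76 over its 210 regions and the mLP-CN arrays −0.70, −0.71, and −0.71, so the whole stretch was far below the typical region and the mLP-CN arrays were the least low. Its probes were long, with a median of 56.5 bases, and 185 of its 210 regions fell in the top decile of probe length. Of those 185 regions, 33 (17.8%) belonged to the 399, compared with 8.46% of the 1348 regions of that decile outside the stretch. As the bounds were set by members, this contrast is in part fixed as well. Of the 34 regions, 20 were lower in mLP-HP than in mCN-CN, among them chr3:72885040-72886692 and chr3:69413517-69415257 described above. Of all regions tested 8.35% were lower. Of all autosomal regions in the top decile of probe length, which held 33 of the 34, 17.6% were lower.

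**Figure D5:**
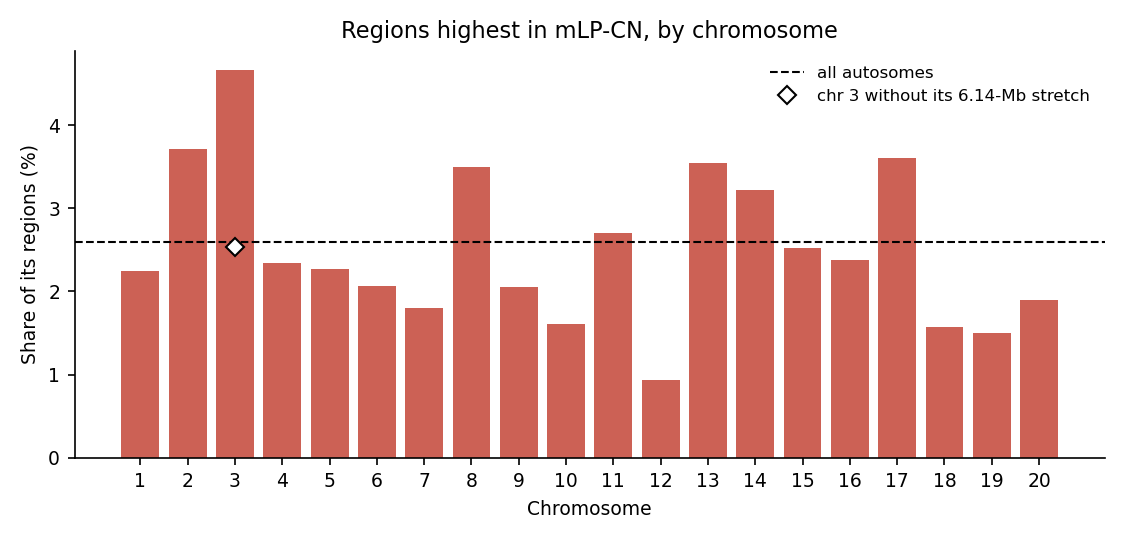
Share of the regions of each autosome (%) that belonged to the 399; the dashed line is the share over all autosomes (2.59%) and the diamond is chromosome 3 without the stretch of 6.14 Mb. Chromosome 3 stands at 4.66% with that stretch and at 2.54% without it. The stretch was drawn from the first to the last of its members.

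In total, 11 runs of at least 4 of the 399 regions, with no more than 1000000 bp between neighbors, held 80 of them (20.1%). At chr3:97121563-97427050, 5 of 10 regions belonged, among them chr3:97425368-97427050 with one of the widest gaps. At chr11:16362307-16443656 all 4 regions belonged, with 27 to 176 probes each, but their gaps were narrow, 0.01 to 0.04. Neighboring regions can share long-range sequence features and probe properties, so the members of a run are not independent of one another. Runs were drawn from their first to their last member, so the shares within them are in part fixed by that.

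Other ways of computing the values kept different parts of the set. With background-corrected and quantile-normalized scanner signals, 742 autosomal regions (4.82%) had all 3 mLP-CN arrays above the other 9, among them 297 of the 399, and mLP-CN had the higher mean in all 399. Of the 102 regions that were lost, mCN-CN array 3 was the highest of the 9 in 80. With loess within each array the number was 82 (0.533%), of which 17 were among the 399. With the processed signals of the scanner software it was 58 (0.377%), of which 28 were. A random order of the arrays would also put all 3 mLP-CN arrays on top in a small share of regions. The shares after loess and with processed signals were close to that share, and no count given here was tested against it. Over 5 such settings, 75 of the 399 regions were separated under none, 94 under 3, and 4 under all 5.

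Those 4 regions were chr13:67877001-67878523 and chr18:59870944-59872669, described above, chr8:101321557-101322990, and chr1:161687429-161689150. At chr8:101321557-101322990, where 7 of 8 probes were bright in the input, the mLP-CN arrays read −0.79, −0.73, and −0.67 in the authors' table. The mCN-CN arrays read −1.13, −0.92, and −0.93, the mLP-LP arrays −1.01, −0.94, and −0.98, and the mLP-HP arrays lay between −1.14 and −0.95. At chr1:161687429-161689150, with 11 probes, the mLP-CN arrays read −0.68, −0.77, and −0.65 and the other 9 between −1.02 and −0.80. With dim probes left out, the first 3 of these regions were still separated, with gaps of 0.09, 0.25, and 0.12, and the fourth was not. In none of the 4 did mLP-LP or mLP-HP differ from mCN-CN in limma (lowest adjusted p = 0.163). With the processed signals, however, mLP-HP was significantly lower than mCN-CN in all 4, with differences of −0.51 to −0.40 (limma, adjusted p = 0.00179 to 0.0194), and 23.1% of all regions tested were lower in that fit.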

How the data were processed

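Kidney DNA was measured on 12 arrays, 3 per group, grouped by their titles. For each probe and array the authors deposited log2 values, whose exact scale and smoothing width are not given in the sources used here. The methods name median centering, quantile normalization, and linear smoothing. On each array these values followed the log2 ratio of Cy5 over Cy3 (Spearman's rho 0.856 to 0.876). Per the file headers, the scanner files hold median spot and background intensities and processed intensities from Agilent Feature Extraction 11.0.1.1, on build rn4. The number of arrays limits the precision.

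Probes whose starts lay at most 1000 bp apart were joined to a region, at least 3 probes were required, and the mean over probes was taken per array. Members, regions named, and tests were chosen with earlier results of these data known. For tests, intensities were corrected with normexp (offset 50), flagged spots were left out, and log2 ratios were median-centered and quantile-normalized. Medians were used because the files hold no mean signals. Limma 3.58.1 (R 4.3.3) was fitted to all 12 arrays (8 residual degrees of freedom) with Benjamini-Hochberg adjustment at 0.05. The fit was also run on simulated data with independent noise on each array. That simulation held no scan effect, so it does not cover the part of the scans. Tables and figures used Python 3.11.15, numpy 2.4.6, pandas 2.3.3, and matplotlib 3.10.9. Alternatives were other sources, normalizations, background corrections, probe filters, summaries, scan blocks, array weights, and each array left out.

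Regions named were the 10 with the widest gap and at least 5 probes, the 3 with the narrowest gap and the 3 nearest non-members, up to 3 called per contrast, up to 5 separated under every scanner setting, and 3 with the most probes. The region called higher in mLP-HP was added after its value was seen. Probes are given without gene names and no rn4 genome was used, so genes, gene lists, and sequences were not analysed here.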

Additional observations from a re-analysis of the deposited data

Results flagged for a closer look

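Chromosome X and unplaced sequence were left out of the choice, and are given here because some of their regions had mLP-CN arrays above the control arrays. Under the same rule, 39 of the 560 regions on X (6.96%) had all 3 mLP-CN arrays above the other 9, compared with 2.59% of the autosomal regions, and the median region on X had a mean probe length of 50 bases. The widest gap, 0.23, was at chrX:113925447-113926901, where the mLP-CN arrays read −0.05, 0.01, and 0.10 and the other 9 lay between −0.66 and −0.28. Of 99 regions on unplaced sequence, 1 met the rule.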

How the results depend on the processing

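The number of autosomal regions with all 3 mLP-CN arrays above the other 9, 399 in the authors' table, was 742 with scanner signals after normexp and quantile normalization, 82 after loess, 58 with processed signals, and 94 with bright probes only. It stayed within 1.5 times without background correction, without quantile normalization, with medians of probes, with a 500 bp gap, and with at least 5 probes. Leaving out 1 array can only keep or raise this number. It gave 413 to 768, over 1.5 times as many without mCN-CN array 3 (658) or mLP-CN array 4 (674), 5 (768), or 6 (658). Without a mLP-CN array only 2 of them have to lie above the other 9, so part of that rise follows from the rule. The median excess of mLP-CN over the other 9 was 0.0542 after loess, 0.14 without quantile normalization, and 0.14 with bright probes, against 0.23.

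For mLP-HP against mCN-CN, 85 regions passed (21.3%, against 16.8% of all regions tested). The number was 42 in the authors' table (10.5% against 13.1%), 258 with processed signals (64.7% against 34.5%), and 182 without quantile normalization (45.6% against 36%). It was 31 without background correction (7.77% against 10.6%), 34 with medians of probes (8.52% against 9.34%), 1 with the scan as a random block (0.251% against 0.0934%), and 163 with array weights (40.9% against 43%). It was 28 to 113 with 1 array left out, with fewer without mLP-HP array 7 (53), 8 (35), or 9 (28). The median difference, −0.1032, was −0.40 with processed signals, −0.0568 in the authors' table, −0.0646 after loess, −0.0553 without background correction, −0.0561 with bright probes only, and −0.12 to −0.07 with 1 array left out.

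For mLP-LP against mCN-CN, 0 regions passed in limma (56 before adjustment), whereas 25 did with array weights (6.27%, against 5.23% of all regions tested). With 1 array left out it was 0 throughout, and the median difference was −0.08 to −0.03. That median turned to 0.0123 in the authors' table and 0.0223 without background correction. For mLP-HP against mLP-LP, 0 passed (45 unadjusted). With processed signals 158 passed (39.6%, against 12.7% of all regions tested), and after loess 25 did (6.27% against 5.93%). The number was 104 without quantile normalization (26.1% against 16.5%) and 65 with array weights (16.3% against 36.3%). With 1 array left out it was 0 to 35, the 35 without mLP-LP array 10 (8.77% against 21.5%). The median difference was −0.31 with processed signals, −0.11 without quantile normalization, and −0.05 to −0.02 with 1 array left out. The causes of these shifts were not tested, and leaving out an array leaves 2 in its group, with the spread taken from all groups. Each of the other alternatives kept its direction and lay within the spread or within 1.5 times the count. No paired analysis was possible because the arrays carry numbers 1 to 12 that no groups share.

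Signal over background was a limit, as 396 of the 399 regions (99.2%, against 84.2% of all autosomal regions) held at least 1 probe not well above background in the input on some array.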
